A study of Glycine max with 3 samples.

Results

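The 24-nt sequences of less conserved miRNA families in vegetable soybean leaves were 48 of the 381 distinct mature sequences in the deposited profile tables. They were the sequences of exactly 24 nt whose name carries a family number outside a fixed list of conserved families and better described legume families. The list is not complete, and the conserved families miR394, miR395, miR399, miR530 and miR2111 are not on it. None of the 48 belongs to these families, but their sequences of other lengths are in the less conserved sets used for comparison below. The rule used length and name and no read count, and where a sequence had several entries the one with the most reads was kept. The other 14 sequences of 24 nt belong to the families left out, called better-known families here. The 48 sequences were listed with 39 hairpins (40 with the second locus of miR5380a) on 18 chromosomes. They carried 36 family numbers, with 1 sequence, miRN3, that the authors listed as new.

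Small RNA was sequenced from leaves of the soybean (Glycine max) cultivar Taiwan 75, grown to the stage of 1 true leaf. The chilled library came from plants held at 4 °C for 24 h, and the control library from unchilled plants, grown with days at 25 °C and nights at 17 °C. In each condition 3 replicates were pooled into 1 library, so no difference between conditions has a replicate check and no test between them was made. A degradome library, in which the ends left by cutting of messenger RNAs are read, was made from chilled and control leaves mixed. Its label gives another stage than the small RNA libraries, 10 days after pollination.

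In plants, most miRNAs are cut from a hairpin by Dicer-like 1 as 21-nt duplexes with short 3′ overhangs, and many begin with uridine and guide Argonaute 1 to messenger RNAs. Small RNAs of 24 nt are typically made by Dicer-like 3, often begin with adenosine, and enter Argonaute 4 and its relatives, which guide DNA methylation at repeats. Long miRNAs made by Dicer-like 3 are known from rice, and young miRNA hairpins in Arabidopsis can give 24-nt products. The roles of the single families below are not known well enough to be stated.

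The sequences on which the results turn are the 10 most abundant and the others that met the rule of size given below. They are written as DNA with bases 2 to 8, the seed, in capitals.
MIR5368-p3: aCCACTCTggaagagctagaattc
miR5785: tAGTGTTGtcctgtcgaacacgga
MIR4398-p3: cAGCGGAGtgagaagacgaaaagt
miRN3: gTATTAGAtgcatactcagtggat
MIR4393a-p3: aACTACATggacgacacagggaca
MIR5034-p3: gAGAGAGAagctctgcctagggaa
MIR5043-p3: aGATGGTGcatagaaggggacacc
MIR4379-p5: aTACTGTGagaggcctaactcaac
miR5380a: aGAAAATGaatgatgaggatgggg
MIR4340-p3: gGTTCCGAattgctgcagagatag
miR5768: aAGTGCAAtactgatcttcggaac
miR4393b: tTGAAAAGggacagcagagaagcc
MIR4383-p3: aAAACTGAtccaattaggttattg

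No pair of the 48 sequences shared a seed. Some names end in p3 or p5, and in hairpins such as MIR5368 and MIR4398 both listed sequences have such names. Names of this kind made up 36 of the 48 sequences (75%), against 168 of the other 333 (50.5%). By the deposited arm, 29 of the 48 came from the 3′ arm and 19 from the 5′ arm.

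The group's sequences had few reads each, and 1 sequence held most of its reads. Together the 48 sequences had 4152 chilled and 4777 control reads, which was 0.0776% (0.0753 to 0.0800, 95% Wilson interval) of all chilled reads in the tables and 0.124% (0.120 to 0.127) of all control reads. MIR5368-p3 took 84.3% of the group's chilled reads (83.2 to 85.4) and 92.0% of its control reads (91.2 to 92.7). The other 47 sequences summed to 652 chilled and 384 control reads. The median sequence of the 48 had 7 chilled and 3.5 control reads, against 12 chilled and 9 control reads over all 381. The 130 sequences of other lengths in the less conserved families were about as scarce, with medians of 5.25 chilled and 5.5 control reads. Of the 48, 2 had no chilled read and 8 no control read, which allows up to 3 reads in each case. Without molecular identifiers reads are not independent molecules, and all intervals cover counting error only.

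Of the 48 sequences, 17 had at least 10 normalised reads in 1 library or both, and 31 did not. The libraries were scaled by the trimmed mean of M-values (TMM), and log2 ratios are of chilled over control normalised reads, with a pseudocount of 1. The intervals, and the pooled ratios given below, use counts without the pseudocount. At few reads a printed ratio is therefore nearer to 0 than the ratio its interval was built on. Of the 17, 10 reached the minimum in both libraries, 6 in the chilled library alone and 1 in the control library alone. The 31 others had at most 10 chilled and 9 control reads each. For none of them did the counting interval leave out a log2 ratio of 0, so no difference was detected in any of them singly at this depth.

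**Figure D1:**
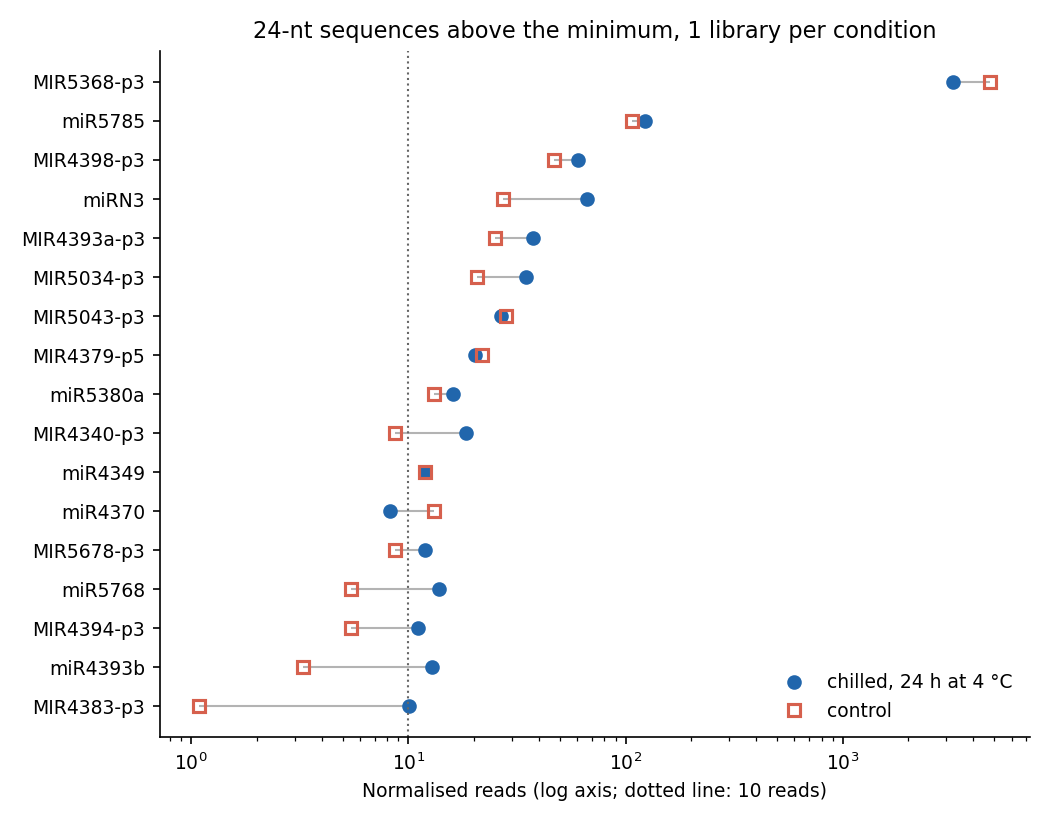
Normalised reads on a log axis of the 17 sequences of 24 nt above the minimum, chilled (filled circles) and control (open squares), 1 library each, with no error bars because there are no replicates. MIR5368-p3 stands far to the right of the rest, and 12 of the 17 have the chilled point to the right of the control point.

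The rule of size asked for a difference of at least 2-fold and at least 10 normalised reads in 1 library. By this rule 4 of the 17 sequences were higher in the chilled library and 0 lower, while over all 213 sequences above the minimum 14.1% were higher and 16.4% lower. With 3 of the 4 above the minimum in the chilled library alone, a sequence low in control could enter only by being higher after chilling. A minimum set on the mean of both libraries was met by the 13 sequences of the group with the most reads. Of these 1 was higher (miRN3), against 22 of all 195 sequences (11.3%) by that rule, so the group showed no excess there. The 4 were miRN3, miR5768, miR4393b and MIR4383-p3. They belong to different families and share no seed.

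miRN3, the authors' new miRNA, had 72 chilled and 25 control reads, a log2 ratio of 1.25 (95% exact conditional interval 0.607 to 2.0). It was the most abundant of the 4, the only one of them above the minimum in both libraries, and it kept a ratio of at least 1 under each alternative run on single ratios. Its hairpin, at chr15:12973935-12974077 on the plus strand in the authors' coordinates (the sources used here name no build), had a GC content of 28% and an MFEI of 1.2. MFEI is the folding energy per 100 nt divided by the GC percent, so a higher value is a more stable fold for the hairpin's length and composition. The hairpin is shown because it is that of the new sequence, which is the first stretch in capitals; the second is the stretch opposite to it, also in capitals in the deposited hairpin. In the deposited fold 21 of the 24 bases of miRN3 were paired.
miRN3 hairpin: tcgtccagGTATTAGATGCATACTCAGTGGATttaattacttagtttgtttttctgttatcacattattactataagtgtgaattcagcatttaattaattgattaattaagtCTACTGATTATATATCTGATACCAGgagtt

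The other 3 higher sequences rested on few reads. miR4393b (chr1:49069221-49069330, minus strand), with 14 chilled and 3 control reads, had a log2 ratio of 1.70 (0.14 to 4.42). MIR4383-p3 (chr2:26866450-26866576, plus strand) had 11 chilled reads and 1 control read and a ratio of 2.41 (0.43 to 8.64). miR5768 (chr17:8459044-8459129, minus strand) had 15 chilled and 5 control reads and a ratio of 1.20, with an interval that took in 0 (-0.19 to 3.15). miR5768 was the value just inside the 2-fold rule, and MIR4340-p3, with 20 chilled and 8 control reads and a ratio of 0.997 (-0.17 to 2.47), the one just outside it. The intervals of miR5768 and MIR4340-p3 overlapped, and the rule separated them on a difference smaller than counting error.

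**Figure D2:**
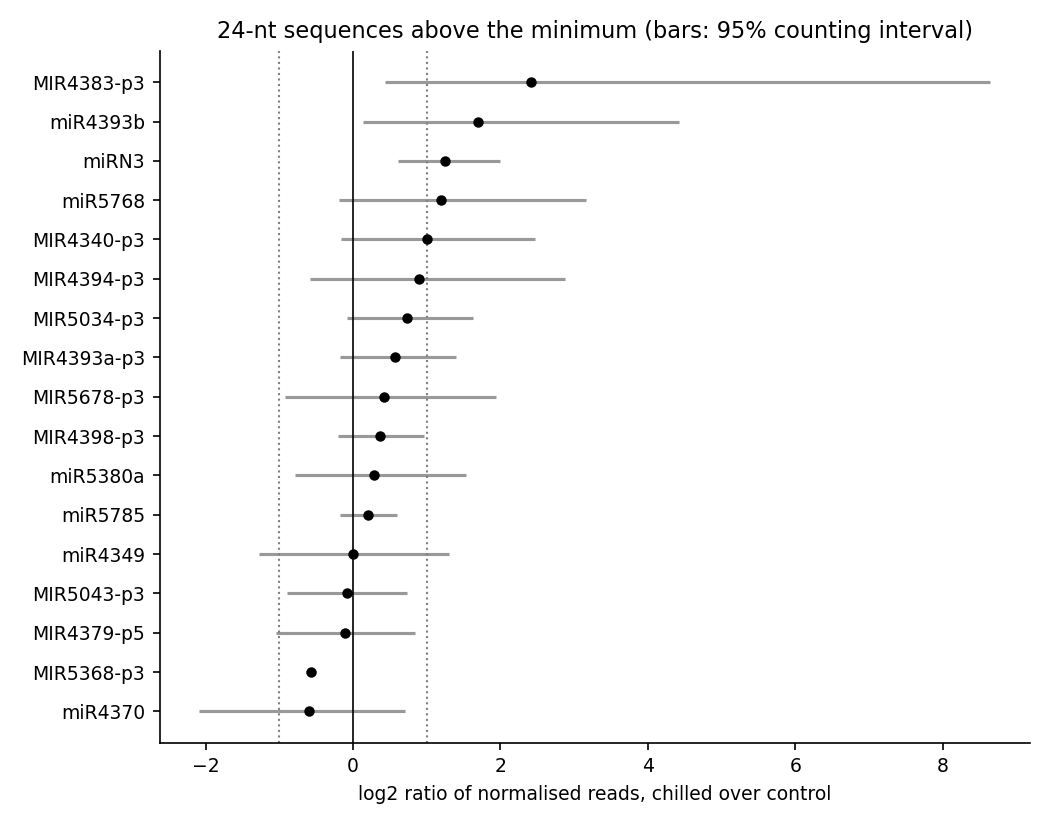
Log2 ratio of chilled to control normalised reads for the 17 sequences above the minimum, with 95% exact conditional intervals that cover counting error only; dotted lines mark 2-fold. The intervals of miRN3, miR4393b and MIR4383-p3 lie above 0, that of MIR5368-p3 below 0, and the other 13 take in 0.

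MIR5368-p3 was lower in the chilled library, unlike most of the 17 sequences above the minimum. It had 3500 chilled and 4393 control reads, a log2 ratio of -0.57 (-0.64 to -0.51), which did not meet the 2-fold rule. Its ratio ranged from -0.80 to -0.33 over the alternatives, below 0 in each of the 7. Among the 17 the lowest ratio was that of miR4370, with 9 chilled and 12 control reads and a ratio of -0.60 (-2.09 to 0.71). Close to 0 were MIR4379-p5 at -0.10, MIR5043-p3 at -0.08 and miR4349 at -0.00333, each with an interval on both sides of 0 and a sign that changed between scalings.

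Between these ends 7 further sequences had more chilled than control reads without meeting the rule. miR5785 had 134 chilled and 98 control reads, a log2 ratio of 0.20 (-0.18 to 0.60) that turned below 0 with the same table total. MIR4398-p3 had 66 chilled and 43 control reads (0.37, -0.20 to 0.96), and MIR4393a-p3 had 41 chilled and 23 control reads (0.57, -0.18 to 1.39). MIR5034-p3 had 38 chilled and 19 control reads (0.73, -0.08 to 1.63), and miR5380a had 17.5 chilled and 12 control reads (0.28, -0.79 to 1.53). The 2 others, named after their values were seen, were MIR5678-p3 at 0.41 and MIR4394-p3 at 0.90. None of these intervals left out 0.

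Pooled without MIR5368-p3, the other 47 sequences had a log2 ratio of 0.52 (0.34 to 0.70), 1.43-fold more chilled than control reads after scaling. With MIR5368-p3 the pool of 48 stood at -0.45 (-0.51 to -0.39), so the direction of the pool turned on this 1 sequence. The pool of 47 lay above 0 under each scaling, from 0.29 with the same table total to 0.76 with unscaled reads. The 14 sequences of 24 nt of better-known families, mostly of the miR1520 family, pooled to a like value, 0.52 (0.36 to 0.68), from 844 chilled and 497 control reads. The other lengths of the less conserved families (130 sequences) pooled to -0.05 (-0.08 to -0.03). These 2 pools keep their most abundant sequence, unlike the pool of 47. Without it, an alternative added after seeing the data, the better-known 24-nt sequences pooled to 0.62 (0.41 to 0.82) and the other lengths to -0.03 (-0.06 to 0.00145). Over the sequences above the minimum the median ratio was 0.41 for the 17 of the group, 0.45 for 9 better-known 24-nt sequences, -0.34 for 40 less conserved 21-nt sequences, -0.06 for 15 less conserved 22-nt sequences and 0.06 for all 213. The median and the pool of the less conserved 21-nt sequences differed in sign, the pool of 83 being 0.05 (0.0155 to 0.0846), or -0.07 (-0.11 to -0.03) without its most abundant sequence. By the rule of size 4 of the 15 less conserved 22-nt sequences were higher (26.7%), against 4 of the 17 in the group (23.5%). Differences between lengths could not be tested with 1 library per condition.

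Counting the direction of all 48 sequences, 33 had a ratio above 0 and 15 below 0, against 209 above 0 among all 381. The count above 0 was 13 of 14 in the better-known 24-nt sequences, 21 of 32 in the less conserved 22-nt ones and 31 of 83 in the less conserved 21-nt ones. Most of these signs rest on a few reads each.

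Adenine was the most frequent first base of the group, and uracil that of the shorter sequences. Adenine was the first base of 24 of the 48 sequences (50%, 95% Wilson interval 36.4 to 63.6), uracil of 11, guanine of 6, cytosine of 6, and 1, MIR4395-p3, began with an undetermined base. Among the 333 other sequences adenine came first in 88 (26.4%, 21.98 to 31.4) and uracil in 135 (40.5%). Of the 83 less conserved 21-nt sequences 22 began with adenine (26.5%) and 42 with uracil (50.6%). The 14 better-known 24-nt sequences were like the group, with 8 beginning with adenine (57.1%). Sequences of a hairpin or family are not independent, so these shares are a description without a test.

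**Figure D3:**
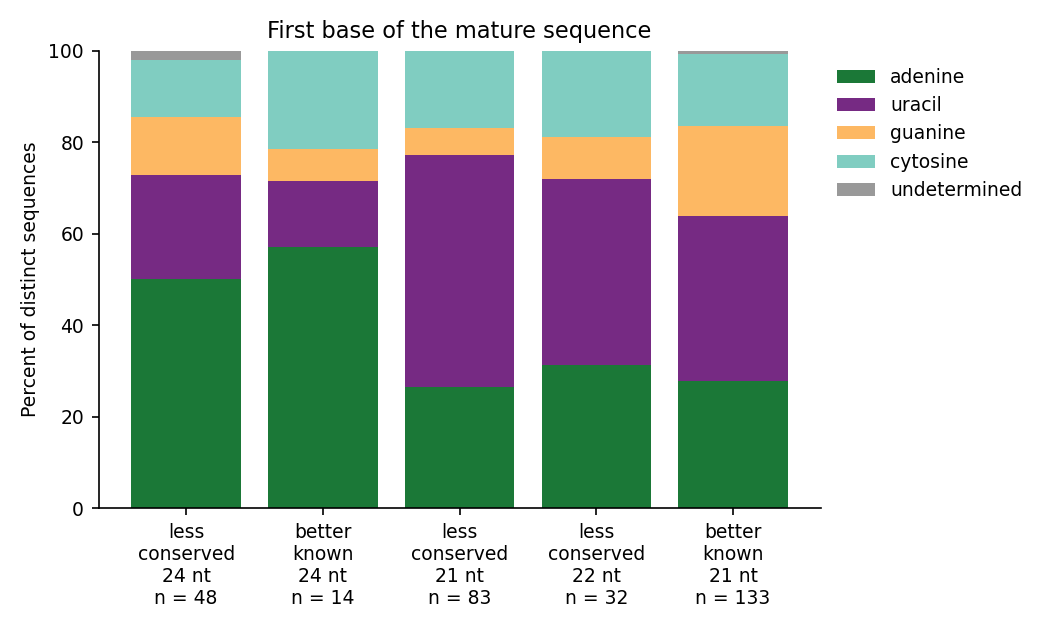
Share of distinct sequences by first base, as stacked bars adding to 100 percent, for the less conserved 24-nt sequences (n = 48), the better-known 24-nt ones (n = 14), the less conserved 21-nt (n = 83) and 22-nt ones (n = 32) and the better-known 21-nt ones (n = 133). The adenine part is 50% and 57.1% in the 24-nt bars, against 26.5%, 31.2% and 27.8% in the others.

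The share by reads turned on MIR5368-p3, which begins with adenine. Reads of sequences beginning with adenine made up 89.4% of the group's chilled and 94.8% of its control reads. Without MIR5368-p3 they made up 32.2% of chilled and 35.2% of control reads. The next in abundance, miR5785, MIR4398-p3 and miRN3, begin with uracil, cytosine and guanine.

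The deposited stability values of the group's hairpins overlapped widely with those of the rest. Hairpin GC content had a median of 39.4% (19.6 to 54.5) in the group and 41.2% in the other 333 sequences. The folding energy dG, whose unit is not given in the file headers, had a median of -47.5 (-189 to -16.2) against -49.3. The median MFEI was 1 in both, and the group spread from 0.5 to 2. miR5380a, listed at 2 loci on chromosome 11, had the highest MFEI (2), and MIR5040-p5, with 1 chilled and 0 control reads, the lowest (0.5). The members' own GC content had a median of 41.7%, against 47.6% in the other sequences. The sets most like the group were close to it, at 42.9% in less conserved 21-nt and 39.6% in better-known 24-nt sequences.

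Pairing within the hairpin was more variable. In the deposited folds a median of 79.2% of a member's bases were paired (29.2 to 100), against 85.7% in less conserved and in better-known 21-nt sequences, 85.4% in better-known 24-nt and 81.8% in less conserved 22-nt ones. The lower quartile was 58.3% in the group and 76.2% in the less conserved 21-nt sequences. In 10 of the 48 (20.8%) the sequence held both bases paired upstream and bases paired downstream of it in the fold, so that it did not lie on 1 side of a single stem, against 5 of 83 less conserved 21-nt (6.02%) and 1 of 133 better-known 21-nt sequences (0.752%). The shares in better-known 24-nt (2 of 14, 14.3%) and less conserved 22-nt sequences (4 of 32, 12.5%) lay between these. MIR5368-p3 was one of these 10, with 10 of its 24 bases paired.

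**Figure D4:**
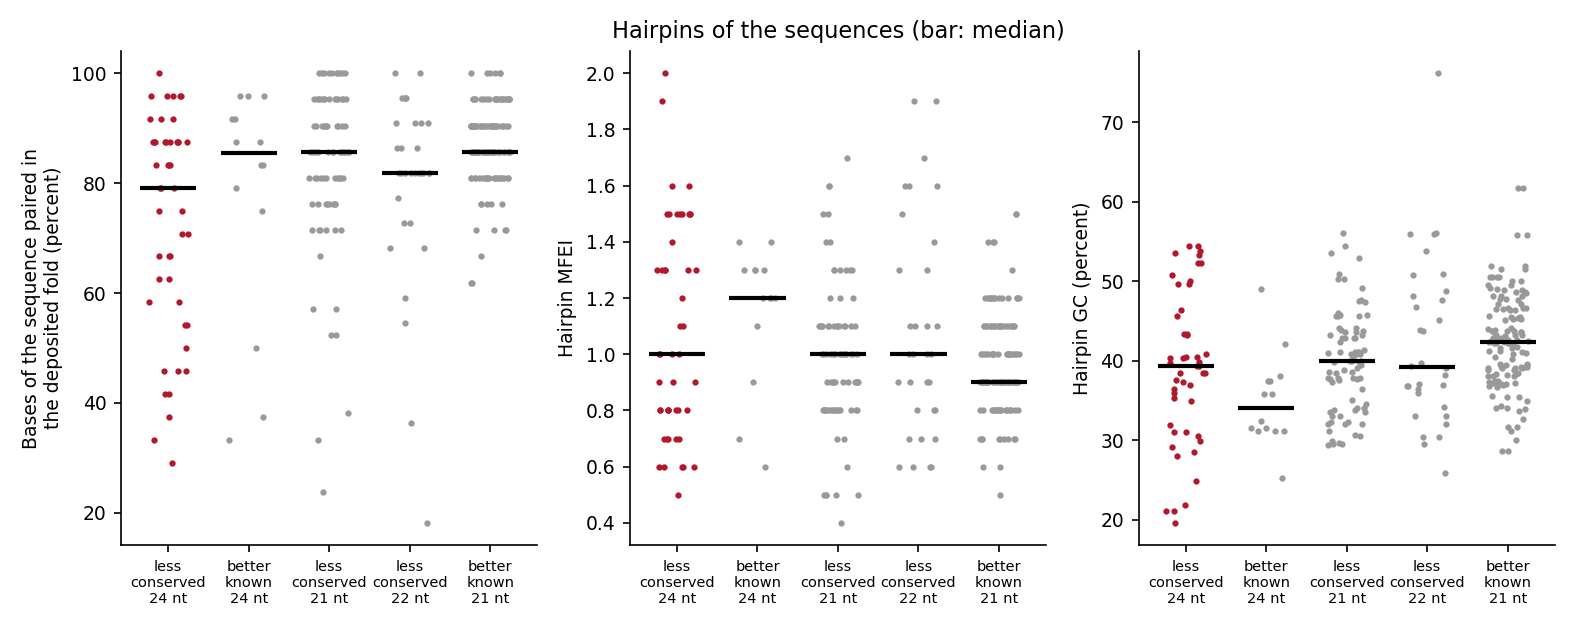
Each point is 1 distinct sequence, with the median as a bar, in the less conserved 24-nt group (left in each panel) and 4 other sets. The panels give the percent of the sequence's bases that are paired in the deposited fold, the hairpin's MFEI and its GC percent; the median paired share is 79.2% in the group and 85.7% in both 21-nt sets, while MFEI overlaps widely.

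A second sequence was listed for 25 of the hairpins with a member. In 9 of them both sequences were members, and in 3 the windows of the 2 sequences overlapped. These were MIR4340 (16 nt shared by MIR4340-p5 and MIR4340-p3), MIR4358 (5 nt) and MIR4379 (3 nt), the hairpins being singled out after their values were seen. Where both ends could be measured from the fold, 0 of 16 hairpins with a member had a 3′ overhang of 2 nt at both ends. Overhangs of 1 to 3 nt at both ends were also found in 0. In the MIR5043 hairpin the offsets were 2 and -2 nt, but in MIR5034 they were 42 and -91 and in MIR4366 -60 and -58. These hairpins were picked after their values were seen. Sequences so far apart do not face each other as the strands of 1 duplex in the deposited fold. Among measured hairpins with a 21-nt sequence on both arms, 14 of 25 less conserved and 65 of 85 better-known ones had 2 nt at both ends. The 14 include hairpins of the conserved families miR395, miR399, miR530 and miR2111. Of the 16 hairpins 11 hold sequences of unequal length, so these counts do not compare like with like. Among the 5 with 24 nt on both arms the count was 0, and among measured hairpins without a member whose sequences were not both of 21 nt it was 2 of 18 in less conserved and 28 of 73 in better-known families. Each sequence was placed in its hairpin by the best match without gaps.

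In 17 of the 48 sequences (35.4%) the deposited hairpin did not contain the mature sequence, and in each of the 17 it differed by exactly 1 base. The share was 17.7% over the other 333 sequences and 15.7% in the less conserved 21-nt ones, while the 24-nt sequences of better-known families (5 of 14) and the less conserved 22-nt ones (14 of 32) had similar or higher shares. Given as hairpin base, position from the 5′ end and mature base, MIR5368-p3 carried C12A, MIR5034-p3 A22G, MIR4340-p3 A1G and miR4370 G5A. Of the 17 differences 14 were transitions, 8 of them A-to-G, and 2 fell in the seed. In the other sequences with a single difference 31 of 56 were transitions. The hairpin of MIR5368 (chr4:23728083-23728251, plus strand) is the one deposited for the group's most abundant sequence. The 22-nt MIR5368-p5 and the 24-nt stretch of MIR5368-p3 are in capitals as deposited. The stretch holds the hairpin's base, not the mature one, at the position given. Because the mature MIR5368-p3 does not occur in this hairpin, the values do not show that its reads came from this locus, which was not tested.
MIR5368 hairpin: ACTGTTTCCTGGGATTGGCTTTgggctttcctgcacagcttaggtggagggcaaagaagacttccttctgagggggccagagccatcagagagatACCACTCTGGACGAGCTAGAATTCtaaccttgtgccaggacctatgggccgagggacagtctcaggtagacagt

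Shares within a hairpin do not depend on the scaling between libraries. They take the reads of both sequences as coming from the hairpin listed, which was not tested. Of the reads of both MIR5368 sequences, MIR5368-p3 took 71.5% in the chilled library (95% Wilson interval 70.2 to 72.8) and 75.3% in the control library (74.2 to 76.4), a difference between the libraries beyond counting error. Its partner MIR5368-p5, of 22 nt, had 1393 reads in the chilled and 1441 in the control library, with a ratio of -0.29 (-0.40 to -0.19), nearer to 0 than that of MIR5368-p3. miR5785 took 93.1% of its hairpin's chilled reads and 93.3% of the control reads, beside the 24-nt MIR5785-p3. MIR4398-p3 took 97.1% of chilled and 95.6% of control reads, beside the 24-nt MIR4398-p5. Both hairpins thus gave nearly all their listed reads from 1 arm in each library. In the MIR5034 hairpin the 22-nt MIR5034-p5, with 30 chilled and 10 control reads, was itself higher by the rule (1.26, 0.27 to 2.54), and MIR5034-p3 took 55.9% of chilled (44.1 to 67.1) and 65.5% of control reads (47.3 to 80.1). Outside MIR5368, the intervals of the shares drawn overlapped between the libraries.

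**Figure D5:**
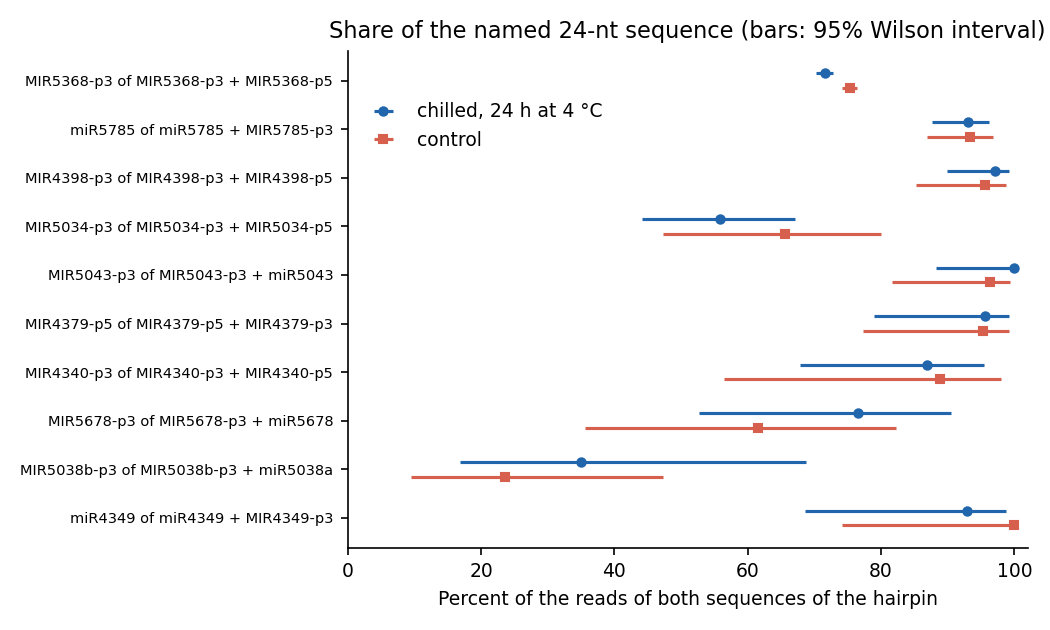
Share of the named 24-nt sequence in the reads of both sequences of its hairpin, in percent, chilled (circles) above control (squares), with 95% Wilson intervals, for hairpins with at least 25 reads in all. MIR5368-p3 is at 71.5% chilled and 75.3% control with intervals that do not overlap, and for each of the other hairpins drawn the intervals overlap.

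Of the 16 hairpins with 1 member and 1 sequence outside the group, the member had more reads than its partner in both libraries in 7 and fewer in both in 3. In MIR4368b both arms were members with 10 chilled and 2 control reads each (log2 ratio 1.68, -0.15 to 5.31), just below the minimum; they were named after their values were seen.

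In the degradome, 0 of the 48 sequences had a listed target. The authors' deposited table held pairs for 86 of the 333 other sequences (25.8%), for 18 of the 83 less conserved 21-nt sequences and for 2 of the 14 better-known 24-nt sequences. Over sequences above the minimum of reads it held pairs for 0 of 17 of the group and for 7 of 40 less conserved 21-nt sequences. The members were scarce, and the part of depth in their lack of pairs was not tested. Other members of the same families were listed with 15 pairs from 4 sequences of 21 or 22 nt, 3 of them in category 0 or 1, by the usual convention those with the highest signal of the transcript at the cut site. These 3 were transcripts of 1 tetratricopeptide repeat gene (Glyma.14G149300) paired with MIR5038a-p5, each with an authors' p-value of 0.0348 in the authors' deposited table. The other listed transcripts of this gene were paired with MIR5038a-p5 in category 2, each with an authors' p-value of 0.971. MIR4358-p5, which shares its hairpin with the member MIR4358-p3, was paired in the authors' deposited table with Glyma.07G085700.3, annotated as NYC1, a chlorophyll b reductase, in category 2 (the authors' p = 0.385).

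Genes of the small RNA pathways themselves (Argonautes, Dicers, RNA-dependent RNA polymerases, subunits of RNA polymerases IV and V and cytosine methyltransferases) were searched for in the target annotation. Of the 898 pairs in the authors' deposited table, 3 named such a gene, a Dicer, and 0 were pairs of the group. For miRN3 the authors' deposited table gave 1 putative target, an AT-rich interactive domain protein, which had no pair with miRN3 in the degradome table.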

How the data were processed

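The authors deposited unscaled estimated counts of reads for each miRNA, which are headed raw reads and in part hold fractions. They were rounded to whole numbers to estimate the scale and for intervals; ratios use the unrounded values. Per the labels' protocols, reads were single-end from TruSeq small RNA libraries. No trimming, aligner, caller or build is named in the sources used here. The deposited tables also give the percent GC of each hairpin, its folding energy and a score, the MFEI, which equalled the energy per 100 nt over GC percent within 0.05 in 585 of 587 entries. The deposited degradome table gives an alignment score, a category, a p-value and a signal named TPB for each pair. The 6 emptied lines among the known miRNAs are not analysed here.

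One entry was kept per distinct sequence, leaving 381, with 5347700 chilled and 3856902 control reads. edgeR 4.0.16 (TMM, R 4.3.3) gave a log2 scale of 0.24 for chilled over control; the median log2 ratio over the 213 sequences with at least 10 normalised reads in 1 library was 0.06. DESeq2 1.42.0 size factors were an alternative. Intervals are at 95%, exact conditional binomial for ratios and Wilson for shares. Whole-library depth is not known, and the libraries are pools, so nothing was tested between conditions. Paired bases were read from the deposited folds. The group and lists were chosen with earlier results of these data known. Sequences were named if they met the rule of size, were among the 10 most abundant, the 5 highest or the 5 lowest ratios, were new, had the highest or lowest MFEI, had a degradome pair or shared a seed. The scaling and intervals were tested on simulated data that held counting error only, so the simulation says nothing of variation between plants or libraries.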

Additional observations from a re-analysis of the deposited data

How the results depend on the processing

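With 1 library per condition no result has a replicate check, and depth limits the ratios of all but the most abundant sequences. No paired analysis was possible because each condition has 1 library. The count of higher 24-nt sequences, 4 as reported, was 2 with the same table total, 9 with unscaled reads, 12 with no minimum, 1 at a minimum of 20 normalised reads and 1 at a minimum of 10 on the mean (added after seeing the data). The count of lower ones, 0 as reported, was 3 with no minimum. The median log2 ratio, 0.41, was 0.14 with the same table total, 0.59 with the total without miR3522, 0.72 with unscaled reads, 0.29 at a minimum of 20 and 0.28 at the minimum on the mean. The pooled ratio of the 47 sequences without MIR5368-p3, 0.52, was 0.29 with the same table total, 0.72 with the total without miR3522 and 0.76 with unscaled reads (added after seeing the data). A scaling moves each ratio by its own shift. The share of table reads, 0.0776% chilled and 0.124% control, was 0.863% chilled and 1.03% control without miR3522 in the total, 0.0737% chilled and 0.115% control with all entries summed, and 0.0122% chilled and 0.00996% control without MIR5368-p3. Adenine as first base, 50% of sequences, was 89.4% by chilled and 94.8% by control reads, and 32.2% by chilled and 35.2% by control reads without MIR5368-p3 (added after seeing the data). The median MFEI, 1, was 1.1 over sequences found exactly in their hairpin; the cause was not tested. Of the 17 single ratios 13 kept their sign under all 7 alternatives and 4 did not, and of the 4 higher sequences 3 kept a ratio of at least 1. The exception was miR5768, at 0.996 with the same table total and 0.85 with a pseudocount of 5. The minimum of reads was not applied again to these single ratios, unlike in the counts of higher sequences above.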

Other observations

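MIR4372a-p3 was the only one of the 48 sequences within 6 differing bases of another 24-nt sequence of the tables; the next nearest differed at 10 bases. Its neighbour was miR1520m, of a family left out by the rule, and both are shown with the differing bases in capitals.
MIR4372a-p3: caatAaAaTcGtgacatgtgacGG
miR1520m: caatCaGaAcAtgacatgtgacAA
MIR4372a-p3 had 5 chilled and 4 control reads, and miR1520m 55.2 chilled and 32.5 control reads, with a log2 ratio of 0.51 (95% interval -0.16 to 1.16).

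Of the 48, 2 shared a seed with a sequence of another length. MIR1528-p3, with 5 chilled reads and 1 control read, had the seed of miR164a, a 21-nt miRNA that targets NAC factors, with 2634 chilled and 584 control reads. MIR1528-p3 had no listed degradome pair, and whether the 2 share a target was not tested. miR5380a had the seed of miRN2, a 21-nt sequence that the authors listed as new, with 49.5 chilled and 64.5 control reads.
miR164a: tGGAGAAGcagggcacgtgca
MIR1528-p3: aGGAGAAGatgaaaattaaattat
miRN2: tGAAAATGtttaaggattgaa
miR5380a: aGAAAATGaatgatgaggatgggg

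By name, 46 of the 48 sequences matched a miRNA gene in RefSeq's table of the assembly Glycine_max_v4.0, through 37 genes, and 36 of these genes lie there on the chromosome that the authors' tables give. MIR5774a, listed on chromosome 4 by the authors, is on chromosome 3 in that table. In that assembly the span of a protein-coding gene overlapped 15 of the 37 genes (40.5%), against 142 of all 659 miRNA genes (21.5%). Less conserved families of other lengths were not counted apart, so it is not shown whether the higher share goes with length.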
